A study of Mus musculus with 2 samples.

Results

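Bex1, Bex2, Bex3, Bex4, Tceal1, Tceal8 and Tceal9 are 7 short X-linked mouse genes that encode small adaptor proteins. Their rows were taken by symbol from a table of 55468 genes, and all 7 were found. They were picked as a family that looked silenced in drug-resistant cells, because Tceal9 and Bex3 had been seen among the lowest resistant-to-wild-type ratios of these same data. The values did not bear that label out for the whole set: Bex3 and Tceal9 were expressed in wild type cells and almost absent from resistant cells, and the other 5 genes were at or near 0 in both.

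The libraries came from KPC2, a mouse pancreatic cancer line. The gemcitabine-resistant group was KPC2 cells under long-term treatment with gemcitabine at 260 ng/mL, which stayed in their medium; the drug resembles deoxycytidine and is incorporated into DNA. The wild type group was KPC2 cells that received no drug, grown in the same serum-supplemented medium. RNA was sequenced from 1 library per group, so no test between the groups was possible and every difference describes these 2 libraries. An acute effect of the drug and a stable property of resistance cannot be told apart, and in bulk RNA neither can fewer expressing cells and less RNA per cell. The sources used here do not say whether the resistant cells are 1 clone.

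Bex stands for brain-expressed X-linked and Tceal for transcription elongation factor A like. Most genes of both families lie in one cluster on the X chromosome of placental mammals, beside the related Armcx and Gprasp genes. Of the 12 mouse Bex and Tceal genes described here, Bex6 alone lies elsewhere, on chromosome 16. Both families are best known from neurons. The proteins are small and largely unstructured and act by binding other proteins. In human tumours such as glioma, BEX1 and BEX2 are known to be silenced by promoter methylation, which was not measured here.

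The promoters of Bex3 and Tceal9 are shown whole, because these are the genes whose levels differed. The sequences are RefSeq windows of build GRCm38.p6, from 250 bases before to 50 after the transcript start, and all 7 genes had a window. Bex3 lies at chrX:136270003-136270302 and Tceal9 at chrX:136244830-136245129, both on the plus strand. Capitals mark TGACG and the box that follows it.
Bex3: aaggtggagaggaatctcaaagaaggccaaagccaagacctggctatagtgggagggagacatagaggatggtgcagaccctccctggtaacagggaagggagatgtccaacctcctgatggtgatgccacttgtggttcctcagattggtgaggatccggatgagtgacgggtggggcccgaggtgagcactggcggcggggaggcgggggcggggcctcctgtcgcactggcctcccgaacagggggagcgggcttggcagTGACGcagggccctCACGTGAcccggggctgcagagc
Tceal9: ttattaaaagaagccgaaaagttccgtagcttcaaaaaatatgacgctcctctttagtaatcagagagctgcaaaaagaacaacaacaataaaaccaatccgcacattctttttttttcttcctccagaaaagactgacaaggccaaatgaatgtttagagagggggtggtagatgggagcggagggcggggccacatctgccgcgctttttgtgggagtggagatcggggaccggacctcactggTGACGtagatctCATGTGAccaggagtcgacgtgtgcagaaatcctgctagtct

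Both windows carried TGACG close to the start, followed by a second box, CACGTGA in Bex3 and CATGTGA in Tceal9, with 9 and 7 bases between the boxes. The same arrangement stood near the start of 4 other members. These are printed with 20 bases on each side and the same capitals, to show how alike the element is. Bex2 is printed because its window held TGACG without the second box. The printed Bex2 stretch also stands in the Bex3 window, in lower case and ahead of the element. Bex1 is at chrX:136215490-136215548 on the minus strand, Bex4 at chrX:136138955-136139013 on the plus strand, Tceal1 at chrX:136707947-136708007 on the plus strand, Tceal8 at chrX:136172208-136172266 on the minus strand and Bex2 at chrX:136068259-136068303 on the minus strand.
Bex1: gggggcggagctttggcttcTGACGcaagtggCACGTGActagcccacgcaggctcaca
Bex4: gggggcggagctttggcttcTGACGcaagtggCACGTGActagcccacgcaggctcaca
Tceal1: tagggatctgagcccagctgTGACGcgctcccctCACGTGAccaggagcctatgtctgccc
Tceal8: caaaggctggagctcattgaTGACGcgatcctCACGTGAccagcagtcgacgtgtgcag
Bex2: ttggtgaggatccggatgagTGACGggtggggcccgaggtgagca

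The element was searched on both strands as TGACG, then 7 to 9 bases, then CACGTGA, a definition chosen after these windows had been read. CACGTGA contains the E-box CACGTG. The exact pair was in the windows of 5 of 7 members, in 8 of 12 Bex and Tceal genes and in 3 of 8 Armcx and Gprasp genes with a window. Over all 27025 genes with a window, of which 1046 were X-linked, 21 held it (0.0777%). Of those 21, 13 were X-linked, but these include all the Bex, Tceal and Armcx genes just counted. With any base allowed at the third position of the second box, written CANGTGA, Tceal9 was added, so that 6 of 7 members and 30 of all genes (0.111%) held the pair. Alone, CACGTGA was in 4.29% and TGACG in 23.0% of genes. Bex2 held TGACG without the second box in this window. The Bex2 and Bex3 windows are copies shifted by 37 bases, 84.8% identical over the 263 bases they share, and the Bex3 element lies past the stretch that the Bex2 window covers. The windows of Bex1 and Bex4 were 98.0% identical over 294 bases, so these members are not independent examples. A match of letters is a description and shows no binding.

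**Figure D1:**
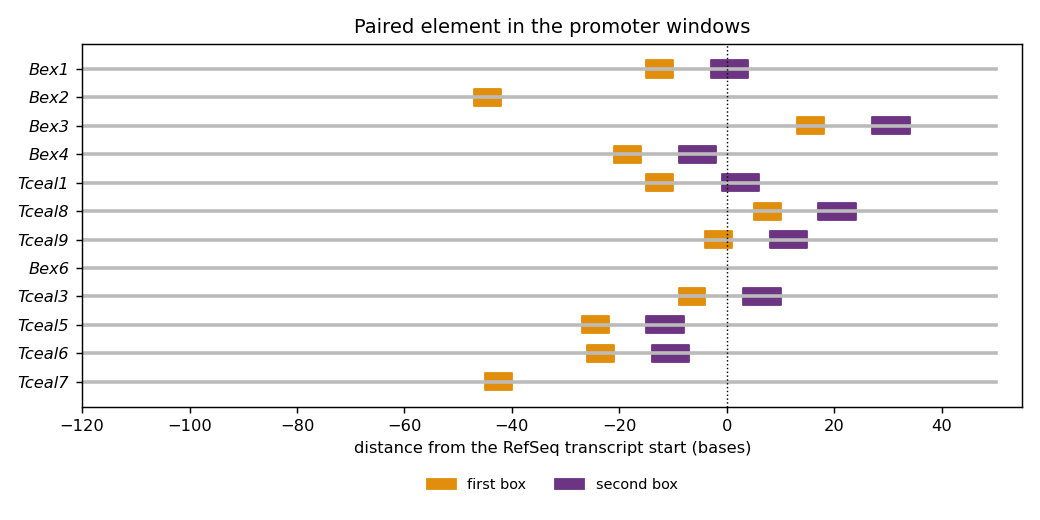
Position of the paired element in the promoter windows of 12 Bex and Tceal genes, in bases from the RefSeq transcript start (dotted line); the part of each window far from the start is not drawn, orange marks TGACG and purple the second box (CATGTGA in Tceal9, CACGTGA in the others). The pair begins within 27 bases of the start in the 9 genes that have it; for Bex2 TGACG alone is drawn, for Tceal7 likewise, although its window also holds CACGTGA before TGACG, and for Bex6 no box is drawn.

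Bex3, also called NADE, encodes a protein that binds the death domain of the neurotrophin receptor p75NTR and takes part in cell death signalled by it. Bex3 had a level of 0.14 FPKM in resistant cells, against 38.1 FPKM in wild type cells. FPKM, the usual measure of fragments scaled to transcript length and sequencing depth, allows genes of unlike length to be compared. The wild type value was 267 times the resistant value. Low values in the table fall on steps of whole fragments, and read on the 766-base Bex3 transcript these levels came to 2 fragments in the resistant and 553 in the wild type library. Counting error alone then gives a 95% interval of 73.7 to 2214.5 for that ratio (exact, from the binomial split of fragments). On the 933-base transcript the same values would be 2.56 and 706 fragments.

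Tceal9, formerly Wbp5, encodes a protein first found through its binding to WW domains. Its level was 0.20 FPKM in the resistant library against 42.9 FPKM in the wild type library, so the wild type value was 214 times the resistant value. On the 1019-base transcript this was 4 fragments against 885, with a counting interval of 83.3 to 787 for the ratio, and on the 888-base transcript 3.39 against 750. The counting intervals were 0.02 to 0.51 FPKM for Bex3 and 0.05 to 0.51 FPKM for Tceal9 in resistant cells, and 34.9 to 41.4 FPKM and 40.2 to 45.9 FPKM in wild type cells. Both genes had been picked for their low ratios, so that they look alike is no result.

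On the log2(FPKM + 1) scale, resistant over wild type, the difference was -5.10 for Bex3 and -5.19 for Tceal9, which understates it because both resistant values are far below 1. These were the 2 of 7 members that reached 1 FPKM in a library, and both were at least 2-fold lower in resistant cells, as were 8.37% of the 12193 genes measured at that level (7.9% were at least 2-fold higher). They were chosen for this difference, so the count supports nothing by itself. Among the 2481 protein-coding genes at 30 FPKM or more in wild type cells, Tceal9 and Bex3 were the 2 found below 1 FPKM in resistant cells, levels set after their values were seen. Ambp, at 28.0 FPKM in wild type and 0.77 FPKM in resistant cells, fell just short of the first level. The authors' deposited table, whose own test rests on 1 library per side, called neither gene: it gave Bex3 a log2 fold change of -8.06 with p = 0.0958 and Tceal9 one of -7.74 with p = 0.106, both with q = 0.998.

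The other 3 Bex members were hardly detected. Bex1, which in rat was found to bind p75NTR, was listed at 0 in both libraries, and so was Bex4. Bex2, whose human relative binds the transcriptional regulator LMO2, was listed at 0 in the resistant library and stood at 0.06 FPKM in the wild type, the worth of 1 fragment. Bex sequences are close to each other: Bex3 shares a 222-base stretch with Bex2 at 99.6% identity, and Bex1 one of 265 bases with Bex4 at 98.9%. The table does not say how fragments from such stretches were assigned, so the split between Bex2 and Bex3, and that between Bex1 and Bex4, is uncertain. The summed Bex2 and Bex3 level carries the same difference, since Bex2 adds almost nothing in either library.

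Of the Tceal members, Tceal1, whose human protein was described as a phosphoprotein resembling the elongation factor TFIIS, was listed at 0 in resistant cells and stood at 0.11 FPKM in wild type cells, about 7 fragments. The counting intervals of these levels were 0 to 0.06 FPKM and 0.04 to 0.23 FPKM. Tceal8 stood at 0.08 against 0.15 FPKM, about 2 against 4 fragments on its 1250-base transcript, and the counting interval of the ratio of wild type to resistant, 0.28 to 21.4, spans 1, so no difference in Tceal8 was detectable at this depth. The 5 remaining genes of the families, Bex6, Tceal3, Tceal5, Tceal6 and Tceal7, were listed at 0 in both libraries. The 12 genes summed to 0.42 FPKM in resistant and 81.3 FPKM in wild type cells, and in wild type cells Bex3 and Tceal9 made up nearly all of it. Bex1 and Tceal7 share a locus in the authors' table and overlap.

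**Figure D2:**
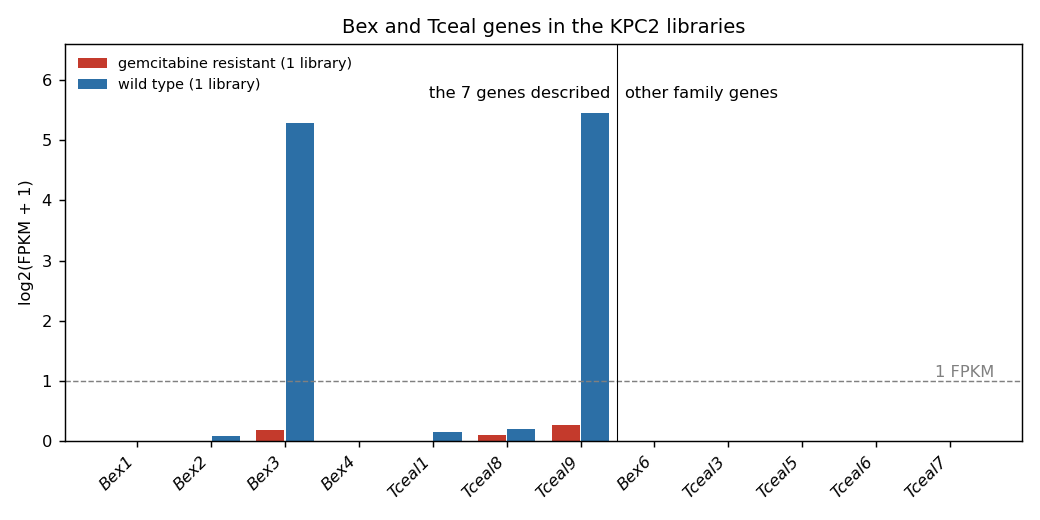
Level of each Bex and Tceal gene as log2(FPKM + 1) in the gemcitabine-resistant (red, left bar) and wild type (blue, right bar) libraries, 1 library each, so there is no error bar; the dashed line is 1 FPKM. Bex3 and Tceal9 rise above it in wild type cells alone, at 38.1 and 42.9 FPKM.

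Bex3 and Tceal9 are next to each other. In GRCm38, Tceal9 occupies chromosome X from 136245079 to 136247139 and Bex3 from 136270253 to 136271978, both on the plus strand, with a gap of 23.1 kb that holds no other gene of the table. The cluster from Tceal6 to Tceal1 spans 1502.8 kb and holds 28 protein-coding genes, of which 23 were below 1 FPKM in both libraries and 18 of those listed at 0 in both. The 5 measured ones were Bex3, Tceal9, Gprasp1, Armcx5 and Tcp11x2. Gprasp1, which encodes a protein that sorts receptors to the lysosome, stood at 4.09 against 5.40 FPKM in resistant and wild type cells, and Armcx5 at 0.69 against 1.04 FPKM. Tcp11x2 went the other way, with 3.04 FPKM in resistant cells and listed at 0 in wild type.

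Outside the cluster, the 5 nearest measured protein-coding genes on each side, chosen by position, lay within 2-fold, with log2 ratios between -0.60 for Hnrnph2 and 0.45 for Gla and a median of -0.03. Morf4l2, which encodes a chromatin-associated protein and starts 462.7 kb beyond the Bex3 start, was at 158 against 166 FPKM in resistant and wild type cells, and Fam199x at 5.33 against 5.26. On the other side, Hnrnph2, an RNA-binding protein gene, stood at 21.2 against 32.7 FPKM, Gla, the alpha-galactosidase gene, at 7.15 against 4.96, Rpl36a at 402 against 392, Timm8a1 at 3.86 against 5.00 and Cenpi at 5.57 against 8.19. The other genes after the cluster were Rnf128 (79.6 against 62.2 FPKM), Tbc1d8b (7.84 against 6.34) and Gm15013 (0.94 against 1.50). None of the 13 other measured genes in and around the cluster was at least 2-fold lower, against 8.37% of all measured genes. At that share few or none of 13 genes would be lower, so the count says little. On the far side this set ends at Gm15013, which starts 3443.4 kb beyond the Bex3 start. The next measured genes there, Cldn2 and Morc4, start 3.53 and 3.55 Mb beyond it. Both were at least 2-fold lower in resistant cells, with log2 ratios of -2.16 and -2.10.

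**Figure D3:**
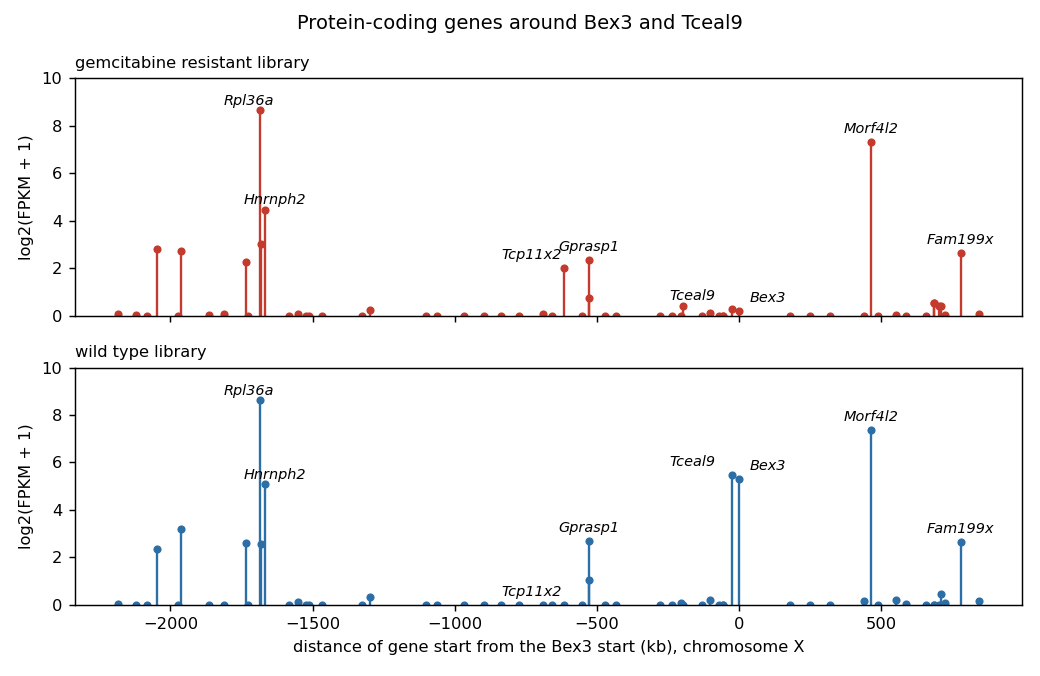
Levels of protein-coding genes as log2(FPKM + 1) against the distance of their start from the Bex3 start in kb, in the gemcitabine-resistant (top) and wild type (bottom) library. Morf4l2 and Rpl36a are as tall in both panels, while the Tceal9 and Bex3 stems are near 0 in the resistant panel (0.20 and 0.14 FPKM).

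Across chromosome X, 16 of 298 measured protein-coding genes were at least 2-fold lower in resistant cells (5.37%) and 25 were at least 2-fold higher (8.39%), against 8.1% lower and 7.24% higher on the other chromosomes. The median log2 ratio was 0.10 on chromosome X and 0.00 elsewhere. Of 204 X-linked genes at 5 FPKM or more in wild type cells, 3 were below 0.5 FPKM in resistant cells: Tceal9, Bex3 and Maged2. Over all chromosomes this held for 16 of 7792 protein-coding genes. Tceal9 and Bex3 had been picked for their low ratios, so these counts cannot compare chromosome X with the other chromosomes. Xist, the RNA that coats an inactive X chromosome, stood at 5.75 against 27.7 FPKM in resistant and wild type cells, and its part in the result was not tested.

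**Figure D4:**
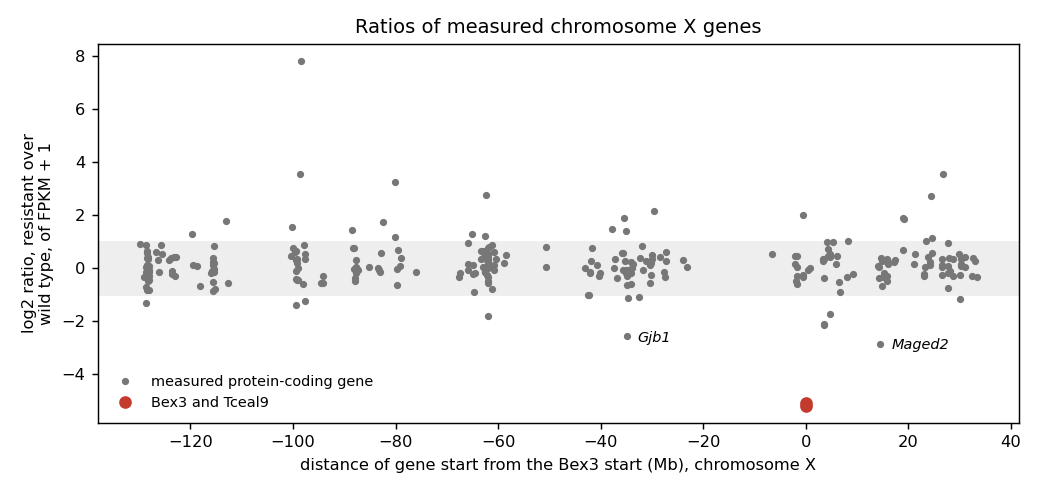
Log2 ratio of FPKM + 1, resistant over wild type, of 298 measured protein-coding genes of chromosome X against the distance of their start from the Bex3 start in Mb; grey shading covers ratios within 2-fold. Bex3 and Tceal9, at -5.10 and -5.19, are the lowest points, and Maged2 (listed at 0 in resistant cells) and Gjb1 follow.

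Most other measured genes with the paired promoter element lay within 2-fold on the log2(FPKM + 1) scale. Of the 30 genes with the pair in its looser form, 12 were measured, and Bex3 and Tceal9 were the 2 at least 2-fold lower. Both had been picked for their low ratios, and only the looser form takes in Tceal9, so this count supports nothing by itself. Over all measured genes, 8.37% were at least 2-fold lower and 7.9% at least 2-fold higher. The other 10 measured genes with the pair, all outside the Bex, Tceal, Armcx and Gprasp families, had a median log2 ratio of 0.12. Pepd, a dipeptidase gene, was at least 2-fold higher, at 32.6 against 15.2 FPKM in resistant and wild type cells. Foxd1, a forkhead factor gene near the level filter, stood at 0.14 against 1.21 FPKM, a log2 ratio of -0.96 that the added 1 FPKM keeps just short of 2-fold. Examples nearer to equal were Ubap2 (33.8 against 34.1 FPKM), Nup54 (19.2 against 16.1), Pafah1b2 (57.2 against 64.7) and the neighbour Gla. Armcx1 was at 0.04 against 0.09 FPKM and Armcx4 listed at 0 against 0.01, while Armcx6 was listed at 0 in both. The Bex3 and Tceal9 windows each held 13 CG dinucleotides, and 63.7% of all windows held as many or fewer, with a median of 7. Within the families these 2 windows held the most, the others ranging from 3 in Bex6 to 12 in Bex2 and Tceal3. The part of CG content in the result was not tested.

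Of the 9 Armcx and Gprasp genes, Gprasp1 and Armcx5 were measured and neither was 2-fold apart. Besides the levels above, Armcx2, Armcx3, Gprasp2 and Bhlhb9 were listed at 0 in both libraries. Among 8 genes of the MAGE family, adaptors that bind ubiquitin ligases, 3 were measured. Over all measured genes 8.37% were at least 2-fold lower, and so was 1 of these 3, too few to describe the family. That gene, the X-linked Maged2, was listed at 0 in resistant cells and stood at 6.27 FPKM in wild type cells, and the authors' deposited table called it (q = 0.0169). Its relative Maged1, which encodes another p75NTR-binding protein, stood at 41.7 FPKM in resistant and 24.1 FPKM in wild type cells, a log2 ratio of 0.77. Nsmce3 was at 2.49 against 2.48 FPKM, Magee1 listed at 0 against 0.23, and Magee2, Mageh1, Magel2 and Ndn were listed at 0 in both.

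The receptor that Bex3 and Bex1 are known to bind was not seen in KPC2 cells. Ngfr, the gene of p75NTR, and Ntrk2 were listed at 0 in both libraries. Of 21 genes around these receptors 15 were measured, with none at least 2-fold lower, 1 higher and a median log2 ratio of -0.04, against 0.02 over all measured genes. The higher one was Sqstm1, an autophagy receptor gene (605 against 132 FPKM). Over all measured genes 8.37% were at least 2-fold lower and 7.9% at least 2-fold higher, so counts this small say little. The p75NTR co-receptor gene Sort1 stood at 1.62 against 0.34 FPKM, a log2 ratio of 0.97. The ligand gene Bdnf stood at 5.30 against 2.36 FPKM. The added 1 FPKM keeps Sort1, Bdnf and Ripk2 (2.81 against 1.23 FPKM) short of 2-fold higher. It also keeps Traf6 (1.68 against 3.51 FPKM) short of 2-fold lower.

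TFIIS, after which the Tceal genes are named, helps stalled RNA polymerase II to resume. Its ubiquitous form, Tcea1, stood at 65.1 FPKM in resistant and 33.2 FPKM in wild type cells, a log2 ratio of 0.95. Tcea3 was at least 2-fold higher in resistant cells, at 8.65 against 1.76 FPKM, and Tcea2 stood at 0.53 against 0.60 FPKM. Over the 26 TFIIS and elongation genes 24 were measured, 23 of them within 2-fold, 1 higher and none lower. The shares over all measured genes were 8.37% lower and 7.9% higher, so counts this small say little. The median log2 ratio of the 24 was -0.14, against 0.02 over all measured genes.

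Bex3 and Tceal9 had been picked for their low ratios in these 2 libraries, so finding them close to each other is no result. By the distance of both log2(FPKM + 1) values over the 2 libraries, the gene nearest to Bex3 was Tceal9 and the gene nearest to Tceal9 was Bex3, at 0.18. The next were Ambp, at 0.77 from Bex3 and 0.82 from Tceal9, then Sulf2 (0.99 and 1.02) and Hspa1b (1.27 and 1.45), whose near-identical copy Hspa1a makes its level uncertain. These had 0.77 against 28.0, 1.09 against 27.1 and 0.13 against 15.2 FPKM in resistant and wild type cells. The fifth was Ccne2 for Bex3 (1.57) and Dhrs3 for Tceal9 (1.60), and none of these 5 is X-linked.

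Markers of islet, stromal and most neuronal cells were at or near 0 in both libraries. All 5 islet markers were listed at 0, and none of 9 fibroblast or 4 pericyte and endothelial markers reached 1 FPKM, with sums of 0.76 against 0.45 and 0.14 against 0.01 FPKM in resistant and wild type cells. Of 14 neuronal and neuroendocrine markers 2 were measured, Tubb3 (1.11 against 3.64 FPKM) and Ncam1 (6.01 against 3.65). The list summed to 7.42 against 7.79 FPKM, with Chga, Chgb, Stmn2, Stmn3, Ina, Insm1 and Syt1 among those listed at 0 in both. Of 5 leukocyte markers 2 were measured, Cd68 (5.48 against 1.17 FPKM) and Lyz2 (1.53 against 0.36), and the list summed to 7.24 against 1.53 FPKM. Ptprc was at 0.23 FPKM in resistant cells and listed at 0 in wild type, with Cd3e and Cd79a listed at 0 in both; the part of these markers in the result was not tested. Of 7 ductal epithelial markers 6 were measured, led by Krt8 (1722 against 1176 FPKM), Krt18 (1864 against 1123) and Krt19 (1738 against 1332). Of this list Krt7 was at least 2-fold higher in resistant cells (32.6 against 7.56 FPKM) and Sox9, a ductal transcription factor gene, at least 2-fold lower (1.88 against 8.19 FPKM), and Epcam was below 1 FPKM in both.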

How the data were processed

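RNA of 1 gemcitabine-resistant and 1 wild type KPC2 library was compared. The submitters' processing notes name HISAT2, StringTie and GRCm38, with no role or version. The deposited table gives a value per gene and library whose header names no unit. They were taken to be the authors' FPKM. They are not whole, and their sums differ, 1197280 in the resistant and 998508 in the wild type library. Low values also fell on steps that depend on transcript length, described below. The unit remains an assumption. It also holds the authors' log2 fold change, test statistic (a score), p-value and q-value, per the file headers.

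Of its gene identifiers, 55227 were placed with GENCODE M21. Rows of 1 symbol were summed, and 13 rows marked as failed or too deep were left out. Ratios are log2((resistant FPKM + 1)/(wild type FPKM + 1)), and genes at 1 FPKM or more in a library count as measured. For genes with 1 transcript of 1000 to 8000 bases, low values times length less 160 bases came within 0.1 of whole fragments for 99.4% of 648 resistant and 100.0% of 581 wild type values up to 5.5 fragments. A fragment was worth 0.0431 and 0.0417 FPKM per kb. For a gene with several coding transcripts, the one that brought its lower value nearest to a whole fragment was used. Intervals (95%, exact Poisson or binomial) cover counting error only.

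The members and all gene lists were chosen with earlier results of these data known. Named genes are the members, their families, the Armcx, Gprasp and MAGE lists, TFIIS and neurotrophin receptor genes, genes of the elongation and neurotrophin lists at least 2-fold apart, the 5 nearest measured genes on each side and the 5 most alike; other genes were named after their values were seen, and a few list genes are not reported here. Transcript copies (at least 80% identity over 200 bases) were sought with BLAST 2.17.0+. Computation used scipy 1.17.1, numpy 2.4.6, matplotlib 3.10.9 and pandas 2.3.3 under Python 3.11.15, and the steps were tested on simulated data. Other pseudocounts, filters, scalings, row choices and a 4-fold line were tried.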

Additional observations from a re-analysis of the deposited data

How the results depend on the processing

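With 1 library per group no replicate could be left out. No paired analysis was possible for the same reason, and there is no test. The labels also give no replicate numbers. Under both other pseudocounts (0.1 and 5), a 5 FPKM filter or none, both rescalings of the resistant library, the highest row per symbol and a 4-fold line, 2 members, and the same count over the 12 family genes, passed the line, and the Armcx and Gprasp, MAGE and elongation counts did not change either. The size of the difference depends on the pseudocount: the log2 ratio was -7.30 for Bex3 and -7.16 for Tceal9 at 0.1, and -3.07 and -3.20 at 5, so which of them is lower depends on it too. The neurotrophin count went to 1 at a pseudocount of 0.1. The X-linked count was 6 at a pseudocount of 5 and 6 at the 4-fold line. Over all measured genes the lower count was 1553 at a pseudocount of 0.1, 297 at 5 and 128 at the 4-fold line. These shifts follow from the pseudocount and the line themselves. The rescalings multiplied resistant values by 0.988 (median) and 0.94 (upper quartile). Depth limits the ratios of Bex3 and Tceal9, which rest on about 2 and 4 resistant fragments, and the other 5 members were at about 8 fragments or fewer in each library, whichever transcript length is taken.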

Other observations

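Besides Tceal9, Bex3 and Maged2, 13 measured X-linked genes were at least 2-fold lower in resistant cells, of which those below were chosen after their values were seen. Cldn2, a claudin gene of leaky epithelia, had 2.36 FPKM in the resistant and 14.0 FPKM in the wild type library, and Morc4, which lies close to it, stood at 0.02 against 3.39 FPKM. They start 3.53 and 3.55 Mb beyond the Bex3 start. The connexin gene Gjb1 stood at 5.43 against 37.5 FPKM and Vsig1, a gene of gastric epithelium, at 42.6 against 143 FPKM. Pdk3 was listed at 0 in resistant cells and stood at 1.00 FPKM in wild type cells, just above the level filter.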
